A study of Mus musculus with 2 samples.

Results

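The genes of 3 families that build and read the extracellular matrix were examined for DPPA2 peaks: collagens, laminins and integrins. Members were the RefSeq protein-coding genes of the mouse build mm10 whose symbols name a collagen chain, a laminin chain or the start of an integrin symbol (Itga or Itgb and a further character). This gave 86 of 21883 protein-coding genes, made up of 44 collagen, 11 laminin and 31 integrin symbols. Of the integrin symbols, 27 name integrin chains and 4 do not: Itgb1bp1, Itgb1bp2 and Itgb3bp encode integrin-binding proteins, and Itgbl1 encodes a secreted protein resembling a beta chain. A peak belonged to a gene when its summit lay inside the gene or within 1000 bp of either end, and a gene-end peak was one within 1000 bp of an end. By this rule 71 of 16229 adriamycin peaks and 23 of 7043 untreated peaks lay at members.

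Collagens are triple helices of alpha chains. Some form fibrils, and collagen IV forms the sheet-like network of basement membranes. Laminins are trimers of one alpha, one beta and one gamma chain, and are the other main network of basement membranes, the first matrix that the early mouse embryo lays down. Integrins are receptors made of one alpha and one beta chain that join these proteins to the actin cytoskeleton, and beta 1 pairs with most of the collagen- and laminin-binding alpha chains. Mouse embryonic stem cells adhere through integrins and make laminin and collagen IV. DPPA2 is a DNA-binding protein of early embryos and germ cells that, with DPPA4, is known to occupy CpG-rich promoters of developmental genes in such cells.

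DPPA2 was mapped by ChIP-seq with an anti-Dppa2 antibody in R1/E cells, a p53+/+ mouse embryonic stem cell line grown on gelatin with serum and leukemia inhibitory factor. The first group was 1 library from cells given adriamycin, a drug that traps topoisomerase II on broken DNA, for 8 h, a treatment the labels enter as apoptosis induction. The second was 1 library from untreated control cells labelled WT. The dose of adriamycin is not stated in the labels, both libraries carry the same batch entry, and all cells came from a single line. With 1 library a group there was no replicate, so no difference between the libraries could be set against a replicate spread and no test was made. All intervals are 95% intervals that cover counting error alone. The lists hold no read totals. The number of fragments at each summit (the pileup) was recovered from the deposited fold and −log10 p, and its median was 14 in both lists. Background over the genome, the genome-wide value below, was taken as the lowest local background recovered at any peak of a list. It was 1.03 fragments with adriamycin and 1.19 untreated. No error for this value enters the intervals. Folds are those of the authors' peak caller, each the summit over its own local background (enrichment in the text), and are not scaled between libraries. They rank peaks within a list, and a gene with a higher fold in one list is not thereby shown to have changed. No input profile was used here.

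The RefSeq promoter table of build GRCm38.p6, the assembly of mm10, gave a window of 250 bases before to 50 after an annotated start for 62 of the 86 members. The windows of 6 members held a summit, and these are shown because DPPA2 was called on those very bases. Col5a1 is added as the member window richest in CG among those with no summit within 1 kb of the start in either list. Capitals mark each CG dinucleotide, the letters run 5′ to 3′ on the gene's strand, and bases are counted from 1 at the 5′ end of the window. The windows are Col4a2 at chr8:11312555-11312854 (plus strand, 33 CG), Col4a4 at chr1:82586800-82587099 (minus, 14), Col16a1 at chr4:130047590-130047889 (plus, 24), Itgb1 at chr8:128685404-128685703 (plus, 27), Itga8 at chr2:12301895-12302194 (minus, 23), Itga9 at chr9:118711442-118711741 (plus, 10) and Col5a1 at chr2:27886175-27886474 (plus, 34).
Col4a2: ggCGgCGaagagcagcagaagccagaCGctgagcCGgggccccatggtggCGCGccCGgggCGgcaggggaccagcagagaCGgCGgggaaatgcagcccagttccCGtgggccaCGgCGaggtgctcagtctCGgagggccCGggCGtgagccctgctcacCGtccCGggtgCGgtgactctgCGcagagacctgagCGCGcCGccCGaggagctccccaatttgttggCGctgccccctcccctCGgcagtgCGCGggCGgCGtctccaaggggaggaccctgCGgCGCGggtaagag
Col4a4: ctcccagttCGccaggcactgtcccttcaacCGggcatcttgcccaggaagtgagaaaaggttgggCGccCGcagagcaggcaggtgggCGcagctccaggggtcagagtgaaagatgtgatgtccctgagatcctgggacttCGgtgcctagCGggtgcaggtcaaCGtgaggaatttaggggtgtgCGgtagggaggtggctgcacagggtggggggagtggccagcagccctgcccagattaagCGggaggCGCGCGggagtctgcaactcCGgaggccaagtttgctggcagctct
Col16a1: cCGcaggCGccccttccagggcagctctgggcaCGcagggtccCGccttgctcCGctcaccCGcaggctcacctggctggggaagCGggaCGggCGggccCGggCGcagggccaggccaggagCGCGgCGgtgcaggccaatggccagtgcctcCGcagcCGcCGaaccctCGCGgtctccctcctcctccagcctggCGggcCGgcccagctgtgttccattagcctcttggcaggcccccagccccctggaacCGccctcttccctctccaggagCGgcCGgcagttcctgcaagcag
Itgb1: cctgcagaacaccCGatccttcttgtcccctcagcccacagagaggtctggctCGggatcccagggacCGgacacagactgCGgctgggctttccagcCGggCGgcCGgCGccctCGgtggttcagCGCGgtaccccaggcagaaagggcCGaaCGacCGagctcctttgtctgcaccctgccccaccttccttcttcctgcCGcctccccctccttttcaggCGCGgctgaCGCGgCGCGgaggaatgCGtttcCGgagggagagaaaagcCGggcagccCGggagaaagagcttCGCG
Itga8: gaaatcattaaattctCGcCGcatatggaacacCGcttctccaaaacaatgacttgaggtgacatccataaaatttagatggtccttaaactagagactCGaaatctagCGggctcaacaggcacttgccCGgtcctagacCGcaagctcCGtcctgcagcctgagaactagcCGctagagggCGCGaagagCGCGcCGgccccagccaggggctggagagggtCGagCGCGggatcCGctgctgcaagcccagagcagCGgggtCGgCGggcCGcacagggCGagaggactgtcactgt
Itga9: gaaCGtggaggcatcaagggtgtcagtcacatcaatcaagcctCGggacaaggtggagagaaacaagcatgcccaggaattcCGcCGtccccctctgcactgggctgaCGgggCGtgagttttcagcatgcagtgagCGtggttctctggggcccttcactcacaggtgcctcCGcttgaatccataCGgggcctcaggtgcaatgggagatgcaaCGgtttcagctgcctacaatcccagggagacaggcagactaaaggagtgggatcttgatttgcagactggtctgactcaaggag
Col5a1: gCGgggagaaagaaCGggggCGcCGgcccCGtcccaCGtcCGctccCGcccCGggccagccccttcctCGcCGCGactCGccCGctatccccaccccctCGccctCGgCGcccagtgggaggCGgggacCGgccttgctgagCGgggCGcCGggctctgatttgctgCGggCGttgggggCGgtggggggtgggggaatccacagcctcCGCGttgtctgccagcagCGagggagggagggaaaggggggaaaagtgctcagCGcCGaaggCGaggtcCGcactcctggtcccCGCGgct

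The adriamycin summit fell on base 222 of the Col4a2 window, base 131 of Col4a4, base 100 of Itgb1, base 262 of Itga8 and base 108 of Itga9. The untreated summit fell on base 274 of the Col16a1 window. CG pairs were frequent around most of these positions and sparser in the windows of Col4a4 and Itga9.

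The first comparison was of which members carried a gene-end peak in each library. In the adriamycin list 16 members did (18.6%, exact interval 11.0 to 28.4%), where the share of all protein-coding genes was 16.0%. In the untreated list 6 members did (6.98%, 2.60 to 14.6%), against 5.78% of all genes. Both shares were near those of all genes. The families were unlike one another in number, but their intervals overlapped widely. Among laminins 4 of 11 genes (36.4%, 10.9 to 69.2%) were marked at an end with adriamycin and 2 (18.2%, 2.28 to 51.8%) untreated. Among collagens the numbers were 6 of 44 (13.6%, 5.17 to 27.4%) and 4 (9.09%, 2.53 to 21.7%). Among integrins they were 6 of 31 (19.4%, 7.45 to 37.5%) with adriamycin and 0 untreated. That count of 0 allows a share of up to 9.68% by a floor of 3 counts and up to 11.2% by the exact interval. All 6 integrin genes were chains. The adriamycin list is longer, and with the strongest 7043 peaks of each list the counts were 1 with adriamycin and 2 untreated for laminins, 3 and 4 for collagens and 2 and 0 for integrins. Of all genes, 5.73% with adriamycin and 5.78% untreated had a gene-end peak at that length. How far list length enters the difference between the libraries was not tested beyond that.

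**Figure D1:**
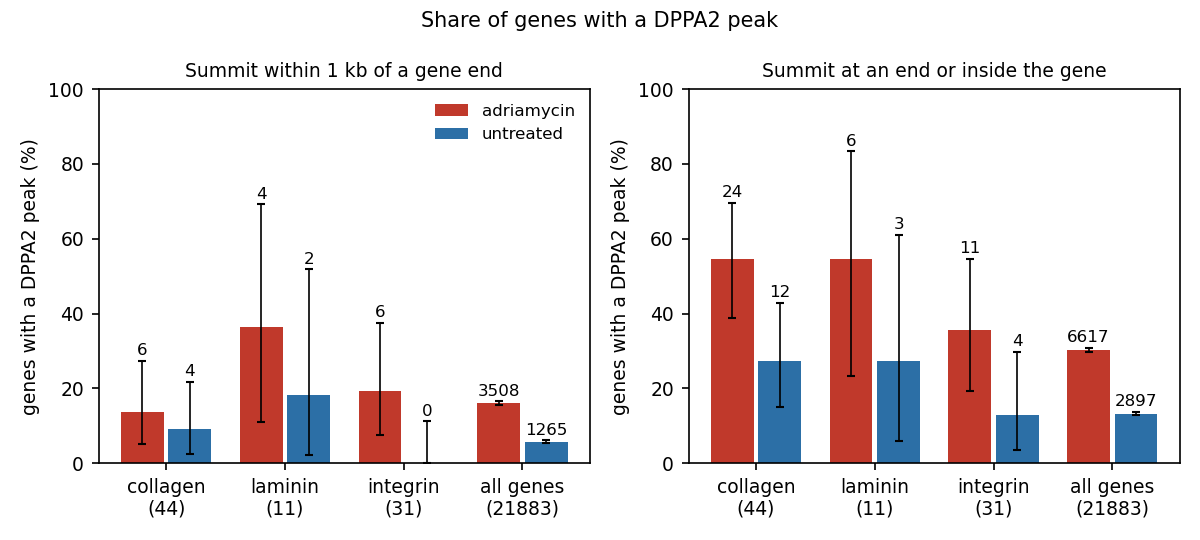
Bars give the percentage of genes in each family, and of all protein-coding genes, with a DPPA2 peak within 1 kb of a gene end (left) or at an end or inside the gene (right), in the adriamycin (red) and untreated (blue) lists. Lines are exact 95% binomial intervals and the numbers at their tops count genes; integrins have 6 genes marked at an end with adriamycin and 0 untreated, and every family interval on the left overlaps the share of all genes.

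Gene-end peaks in both lists were found at 5 members (Col4a3, Col4a4, Col6a2, Lama3 and Lamc1), which is 5.81% of members and compares with 4.51% of all genes. A further 11 members (12.8%, against 11.5% of all genes) had one with adriamycin alone, and 1 member (1.16%, against 1.27%), Col16a1, had one untreated alone. The summits lay close to the ends. In the adriamycin list they were 29 to 718 bp away with a median of 145 bp over 16 gene and peak pairs, and 12 of the 16 lay within 300 bp. In the untreated list they were 46 to 732 bp away over 6 pairs. None was in the top 10% of its list by fold. Where the strand was known, 7 of 8 adriamycin gene and peak pairs (87.5%) lay at the start side of the gene and 1 at its far end. Of such pairs of all genes, 86.9% lay at the start side. Col4a1 and Col4a2 enter as separate pairs with 1 shared peak. The Itga9 gene-end peak lay at the start side of the gene but 104903 bp from the annotated start in the promoter table. Untreated, 2 pairs lay at the start side and 1 at the far end.

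Collagen IV, the basement membrane network collagen, had 4 of its 6 genes marked at an end with adriamycin and 2 untreated. The shares of all protein-coding genes were 16.0% and 5.78%. Pairs of these genes share a peak, so the 4 genes carried 2 of the 4 collagen gene-end peaks with adriamycin, and the 2 genes 1 of the 3 untreated. Its genes lie in pairs that are transcribed away from each other, so that a single peak can sit at the starts of both. The RefSeq genes Col4a1 and Col4a2 overlap by 85 bp, and their annotated starts are 21 bp apart. In the adriamycin list 1 peak at chr8:11312476-11312879 covered this point, with its summit 50 bp from the Col4a1 start and 29 bp from the Col4a2 start. Its fold was 4.27 and its pileup 19 fragments (11.4 to 29.7). No untreated peak was called there, and the nearest untreated summit lay 24888 bp away, inside Col4a2. The local background at this pair was 3.58 times the genome-wide value, and its fold ranked at the 20.1 percentile of its list. This peak was kept at a q of at most 1e-05, but not at a fold of at least 5 or with lists of equal length.

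Col4a3 and Col4a4, whose chains form the specialised collagen IV of the kidney glomerulus, overlap by 114 bp and had a peak in both lists. The adriamycin peak, chr1:82586799-82587329, had 5.81-fold enrichment and 17 fragments (9.90 to 27.2). The untreated peak, chr1:82586962-82587350, had 4.62-fold enrichment and 15 fragments (8.40 to 24.7). The 2 summits were 225 bp apart, at 120 bp and 345 bp from the annotated Col4a4 start. The third pair, Col4a5 and Col4a6 on chromosome X, is separated by 1274 bp. Neither gene had a peak in either list. The summits closest to the ends of Col4a5 lay 137647 bp away with adriamycin and 477955 bp untreated, and those closest to Col4a6 166955 and 167988 bp.

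The other collagen gene-end peaks were at single genes. Col6a2, a chain of the beaded-filament collagen VI, had its peak at the far end of the gene, 680 bp from that end in the adriamycin list (chr10:76596152-76596847) and 732 bp in the untreated list. The folds were 5.59 and 4.26 and the pileups 19 (11.4 to 29.7) with adriamycin and 14 (7.65 to 23.5) untreated. Col6a1, the partner chain, had an adriamycin peak 1151 bp from its own far end, just beyond the 1 kb limit, with 5.65-fold enrichment and 18 fragments (10.7 to 28.4). Col12a1, a fibril-associated collagen, was marked with adriamycin alone, 718 bp inside its lower-coordinate end. The peak had 4.76-fold enrichment and 9 fragments (4.12 to 17.1), the fewest of any member gene-end peak, and the closest untreated summit lay 256917 bp off.

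Col16a1, also fibril-associated, had its gene-end peak in the untreated list, at chr4:130047679-130047938 and 23 bp from its annotated start. Enrichment was 3.98-fold with 15 fragments (8.40 to 24.7). A lncRNA gene, Gm12963, also has an end within 1 kb of that summit. The nearest adriamycin summit to either end of Col16a1 was 13259 bp away. No fibrillar collagen gene of the 11 had a gene-end peak in either list, among them Col1a1, Col1a2 and Col3a1, the main chains of skin and bone fibrils, which had no peak inside the gene either. Of all protein-coding genes, 17.3% had a gene-end peak in one list or the other. The 11 genes are too few to set their count apart from that share.

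**Figure D2:**
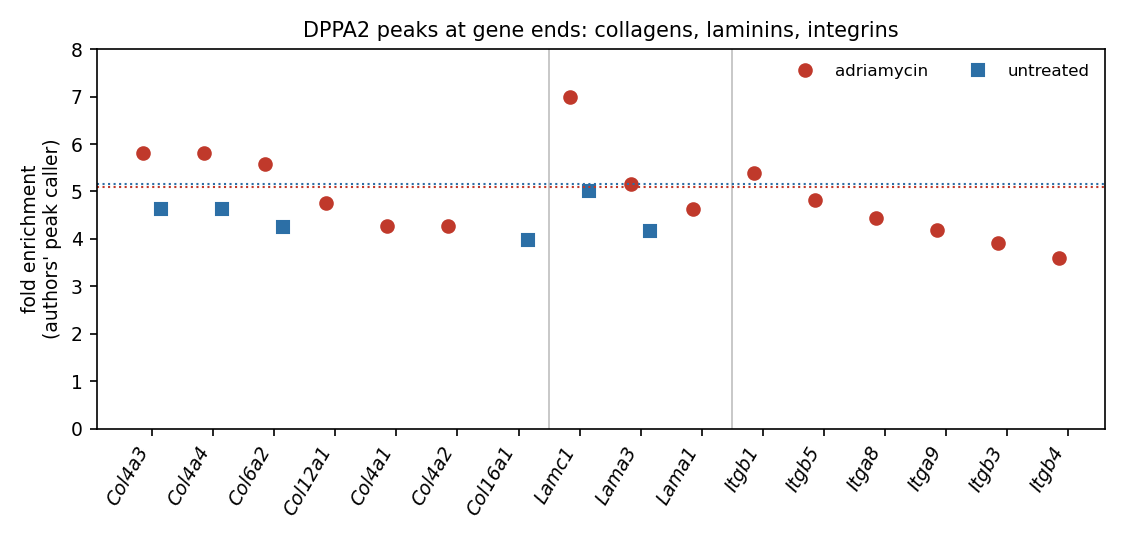
Fold enrichment of the gene-end peak of 16 of the 17 members that had one (1 is not shown), in the adriamycin (red circles) and untreated (blue squares) lists, with families separated by grey lines and dotted lines at each list's median fold (5.10 adriamycin, 5.16 untreated). Lamc1 has the highest folds, 7.0 with adriamycin and 5.00 untreated, all 6 integrins have adriamycin points alone, and the members of each collagen IV pair share 1 peak.

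Among laminins the strongest gene-end peak was at Lamc1, which encodes gamma 1, the gamma chain of most laminin trimers. Its adriamycin peak, chr1:153332400-153332785, had 7.0-fold enrichment and 27 fragments (17.8 to 39.3). Its untreated peak, chr1:153332448-153332802, had 5.00-fold enrichment and 20 fragments (12.2 to 30.9), and the summits were 14 bp apart. Both lay inside the gene, near its higher-coordinate end (194 bp with adriamycin, 180 bp untreated). This was the strongest member gene-end peak of either list.

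Lama3, which encodes the alpha chain of the epithelial laminin that anchors skin, had 5.15-fold enrichment and 13 fragments (6.92 to 22.2) in the adriamycin list. In the untreated list enrichment was 4.17-fold with 11 fragments (5.49 to 19.7). The summits lay 655 bp with adriamycin and 693 bp untreated from its lower-coordinate end.

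Lama1 encodes the alpha chain of laminin-111, the laminin of the early embryo. Its lower-coordinate end was marked with adriamycin alone, at 351 bp, with 4.62-fold enrichment and 11 fragments (5.49 to 19.7). The beta chain of the same trimer, Lamb1, had 2 peaks inside the gene in the adriamycin list (folds of 4.68 and 3.93) and none in the untreated list. Lamc3 likewise had 2 inside, with folds of 4.38 and 5.08, in the adriamycin list alone. Lama2, Lama4, Lama5, Lamb2 and Lamb3 had no peak in either list. Lama2 is the longest member at 636 kb.

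Among integrins, all 6 gene-end peaks belonged to the adriamycin list. Itgb1, which encodes the beta 1 chain, had its peak at chr8:128685325-128685635, 151 bp outside its annotated start, with 5.40-fold enrichment and 14 fragments (7.65 to 23.5). The closest untreated summit lay 263655 bp away. Itgb5, the beta 5 partner of the alpha v chain, had 4.81-fold enrichment and 17 fragments (9.90 to 27.2) at 244 bp from its start. These were the highest folds of the 6.

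The other 4 were weaker. Itga8, an alpha chain that binds the RGD motif of matrix proteins, had 4.44-fold enrichment and 11 fragments (5.49 to 19.7), 11 bp from its annotated start and within 1 kb of an end of the lncRNA gene E030013I19Rik. Itga9, an alpha chain that binds tenascin and other matrix ligands, had 4.19-fold enrichment and 12 fragments (6.20 to 21.0). Itgb3, the beta chain of the platelet integrin, had 3.92-fold enrichment and 11 fragments (5.49 to 19.7), 139 bp from its lower-coordinate end. Itgb4, the laminin receptor chain of hemidesmosomes, had 3.59-fold enrichment and 12 fragments (6.20 to 21.0), the lowest enrichment of the 6. The closest untreated summits lay 72880 to 435014 bp from these 4 peaks, and 19486 bp from that of Itgb5.

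A further pair of integrin peaks lay at starts inside the gene. Itgav, the alpha v chain that binds RGD-containing matrix proteins, had an adriamycin peak (fold 5.73, pileup 17, 9.90 to 27.2) 2452 bp from the lower-coordinate end of the gene and 358 bp from its annotated start. Itga9 had a second adriamycin peak (fold 5.49, pileup 17, 9.90 to 27.2) 104840 bp inside the gene and 143 bp from an annotated start. The alpha chains that bind laminin, Itga3, Itga6 and Itga7, had no peak in either list, and neither did Itga5, the fibronectin receptor chain. Of the 5 leukocyte alpha chains, 1 had a peak: Itgad, inside the gene and untreated alone, with 6.69-fold enrichment and 22 fragments (13.8 to 33.3). Of all protein-coding genes, 31.9% had a peak at an end or inside in one list or the other. These classes of alpha chains hold too few genes to be set apart from that share.

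CG content was not used to choose the members. Over the 21262 annotated starts of protein-coding genes, 15.0% had an adriamycin summit and 5.60% an untreated summit within 1 kb. Starts were divided at 4, 13 and 24 CG, the quartiles of all starts. Of those with over 24 CG, 33.6% had an adriamycin and 12.9% an untreated summit. Of those with at most 4, 2.04% and 0.895% did. The 68 annotated starts of 62 members had the same order. With adriamycin 8 had a summit, 3 of 6 in the richest class, 4 of 20 in the next, 1 of 29 in the third and 0 of 13 in the poorest. In the richest class the Col4a1 and Col4a2 starts, 21 bp apart, share 1 peak. That peak is counted at each of them, here and in the medians below. Untreated 3 had one, 1 of 6 and 2 of 20 in the richest classes and 0 in the other 2.

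The median member start with an adriamycin summit had 23.5 CG, against 10.0 for those without. For untreated summits the values were 24.0 and 10.0. A CG-rich start was not always a start with a summit: of the 6 members in the richest class, Col5a1 (34 CG) and Col8a2 (32 CG) had none within 1 kb in either list, and Itga9 had one at a window of 10 CG. Member windows had a median of 11.5 CG, and windows of all genes 13.0. Gene-end peaks at Col12a1, Itgb3, Itgb4, Lama1, Lama3 and Lamc1 are outside this count, since these genes had no matched window. Col4a3 had no matched window either, but the peak it shares with Col4a4 is counted at the Col4a4 start.

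**Figure D3:**
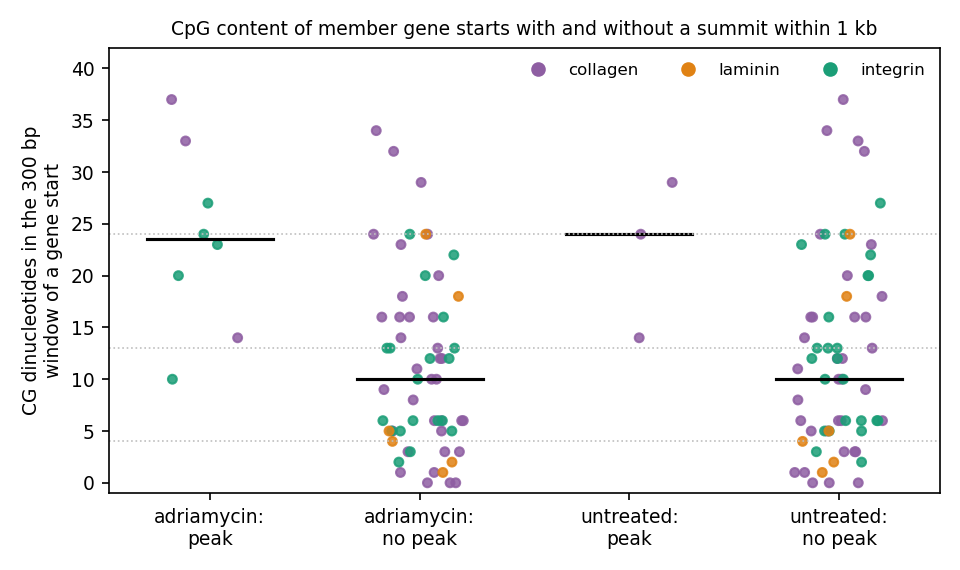
Each point is 1 of 68 annotated starts of member genes, plotted by the number of CG dinucleotides in its 300 bp window, split by whether an adriamycin (left) or untreated (right) summit lay within 1 kb; sideways spread has no meaning. Black lines are medians (23.5 with and 10.0 without an adriamycin summit, 24.0 and 10.0 for untreated summits), and dotted lines at 4, 13 and 24 are the quartiles of all protein-coding starts. The Col4a1 and Col4a2 starts share 1 adriamycin peak and are separate points.

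The second comparison was of peaks anywhere in the members. In the adriamycin list 41 members had a peak at an end or inside (47.7%, 36.8 to 58.7%), against 30.2% of all protein-coding genes, and in the untreated list 19 did (22.1%, 13.9 to 32.3%), against 13.2%. Of the 41, 26 had one with adriamycin alone (30.2%, against 18.7% of all genes), and 4 members had one untreated alone (4.65%, against 1.66%): Col13a1, Col18a1, Itgad and Itgb2. By family the members with a peak were 24 collagens, 6 laminins and 11 integrins with adriamycin, and 12, 3 and 4 untreated. With lists of equal length the counts were 10, 3 and 6 with adriamycin and 12, 3 and 4 untreated, beside 13.4% and 13.2% of all genes. In neither list did the other 41 members have a peak. Members are long genes, with a median of 75.3 kb against 17.2 kb for all genes, and a longer gene holds more positions for a summit. Among genes of 100 kb or more, 60.5% of 38 members and 70.0% of 2428 genes had an adriamycin peak, and 36.8% and 37.9% an untreated one. Among the 19 members under 30 kb the shares were 36.8% with adriamycin and 5.26% untreated, against 18.7% and 6.91% of all genes of that length.

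Per length, peak densities in members were close to those in all genes. Inside members, beyond 1 kb from their ends, the adriamycin list had 57 summits in 9.19 Mb, or 6.20 per Mb (4.70 to 8.04), and all protein-coding genes had 5.82 per Mb. The untreated list had 18, or 1.96 per Mb (1.16 to 3.10), against 2.25. At gene ends the density was 41.2 per Mb (22.5 to 69.2) in members and 41.9 in all genes with adriamycin, and 14.7 (4.78 to 34.4) and 15.1 untreated. All 4 intervals include the densities of all genes.

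The strongest member peak lay inside Lama1, 44291 bp from the nearest gene end. It was called at chr17:67741308-67741574 with adriamycin, with 22.8-fold enrichment and 85 fragments (67.9 to 105), and at chr17:67741313-67741573 untreated, with 18.2-fold enrichment and 64 fragments (49.3 to 81.7). By fold it ranked 17 of 16229 and 42 of 7043. The local background was 2.71 and 2.16 times the genome-wide value. No other member peak had a fold of 10 or more in either list.

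Itgbl1 had the most peaks, 6 with adriamycin and 3 untreated, all inside its 319 kb and none at an end. Its strongest were at chr14:123723043-123723777, with 9.17-fold enrichment and 30 fragments (20.2 to 42.8) with adriamycin, and chr14:123722967-123723693, with 8.67-fold enrichment and 25 fragments (16.2 to 36.9) untreated. A second site, near the middle of the gene, had folds of 9.13 and 5.93 and pileups of 22 (13.8 to 33.3) with adriamycin and 12 (6.20 to 21.0) untreated. Itgb5 had an inside peak in both lists, with folds of 7.63 and 7.30 and a pileup of 19 (11.4 to 29.7) in each. Itgb6, the epithelial partner of alpha v, had a fold of 6.50 in the adriamycin list, 5117 bp from its start, at a position spanned by the lncRNA gene Gm33436.

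**Figure D4:**
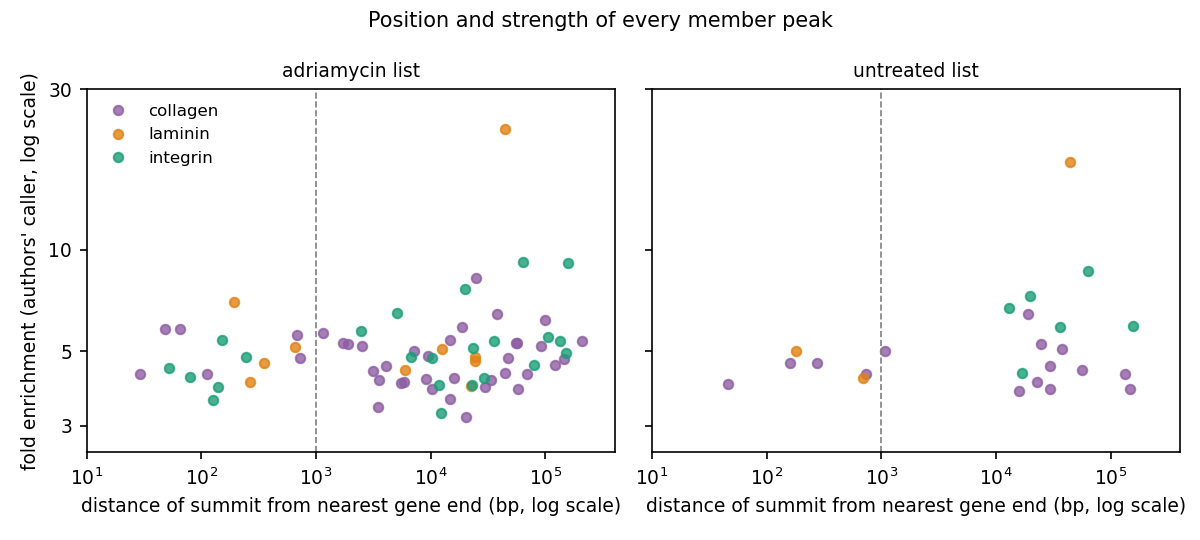
Every member peak by distance of its summit from the nearest gene end (bp, log scale) and fold enrichment (log scale), in the adriamycin (left) and untreated (right) lists, coloured by family, with a dashed line at 1 kb. The Lama1 peak stands alone at a fold of 22.8 with adriamycin and 18.2 untreated, far inside the gene, while gene-end peaks do not pass 7.0.

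Collagens held 34 inside peaks with adriamycin and 11 untreated. Basement membrane chains were among the strongest. Col4a2 had a peak 24828 bp from its start with 8.24-fold enrichment and 27 fragments (17.8 to 39.3) with adriamycin, and 5.25-fold enrichment and 18 fragments (10.7 to 28.4) untreated. Col4a3 had one 18740 bp from its higher-coordinate end with 5.88-fold enrichment and 19 fragments (11.4 to 29.7) with adriamycin, and 6.42 and 23 (14.6 to 34.5) untreated. Col15a1, a basement membrane proteoglycan collagen, had 4 peaks with adriamycin and 2 untreated, the strongest with folds of 6.42 and 5.06.

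Other collagens with 3 adriamycin peaks were Col11a2, Col16a1, Col22a1 and Col26a1. Folds were 4.11, 4.14 and 5.18 in Col11a2, a fibrillar chain of cartilage and the inner ear, which had no untreated peak. In Col22a1, a collagen of muscle and tendon junctions, they were 4.74, 5.30 and 5.28 with adriamycin and 4.38 at its 1 untreated peak, which overlapped the last of them. In Col26a1 they were 4.52, 4.26 and 4.76, with no untreated peak. All of these rested on 11 to 17 fragments at the summit. Those of Col16a1 lay over the highest local background of any member, 4.22 to 5.33 times the genome-wide value, and had pileups of 16, 26 and 31 but folds of just 3.18, 4.17 and 5.39. Of the 11 fibrillar collagens, 4 had an inside peak with adriamycin and 0 untreated: Col2a1, the cartilage collagen, Col5a1, Col11a2 and Col24a1, the last with the highest fold of the 4 at 6.20. A peak at an end or inside was found at 30.2% of all genes with adriamycin and 13.2% untreated. The 11 genes are too few to set their counts apart from those shares. All 4 transmembrane collagens had a peak in one list or the other, 3 in each, where 31.9% of all genes did in either list. They are 45.7 to 419.5 kb long, and 3 of the 4 exceed 100 kb, a length at which 70.0% of all genes had an adriamycin peak. Col13a1 had its peak in the untreated list, with 5.00-fold enrichment and 15 fragments (8.40 to 24.7), 984 bp from its annotated start. Col17a1, the hemidesmosome collagen, had a peak in each list at different positions, with folds of 3.61 with adriamycin and 4.06 untreated. The same held for Col23a1, with folds of 4.55 and 3.87 with adriamycin and 3.85 untreated. Col25a1 had a fold of 5.34 with adriamycin and no untreated peak.

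Among the remaining collagens, Col8a2, a short-chain network collagen of the cornea, had adriamycin peaks at 1728 and 10224 bp inside its start, with folds of 5.28 and 3.85. The collagen VI genes Col6a3 (4.11 and 4.03) and Col6a6 (4.35), and Col7a1 (3.42), the anchoring fibril collagen of skin, were likewise called with adriamycin alone. Col18a1, the source of endostatin, was called untreated alone inside the gene, at a fold of 3.85 and a position spanned by the pseudogene Gm7775. An adriamycin peak lay 2406 bp outside Col18a1, beyond the 1 kb limit, with a fold of 3.16 and 12 fragments. Of the remaining integrin chains, Itga11, a collagen-binding alpha chain (5.10), and Itgb7, a leukocyte beta chain (4.79), were called with adriamycin alone, and Itgb2, the main leukocyte beta chain (4.30), untreated alone. These single calls rested on 10 to 18 fragments.

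The third comparison was of whether the same positions were called in both libraries. Of the 71 member peaks in the adriamycin list 15 overlapped an untreated peak by at least 1 bp (21.1%, 12.3 to 32.4%), against 34.4% of all adriamycin peaks. Of the 23 in the untreated list 15 overlapped an adriamycin peak (65.2%, 42.7 to 83.6%), against 79.7% of all. With lists of equal length, 47.8% of the adriamycin member peaks overlapped. The share of all adriamycin peaks at that length was not computed, so members cannot be set against it. At gene ends 4 of 14 adriamycin member peaks overlapped, against 27.2% of those at any protein-coding gene end, and 4 of 5 untreated ones, against 75.8%. Member peaks had a median fold of 4.78 with adriamycin, against 5.10 for the list, and 4.62 untreated, against 5.16.

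At the 15 overlapping pairs the summit pileup, scaled to each library's genome-wide background, was on the median 1.39 times as high with adriamycin as untreated, and 1.32 times over all 5619 overlapping pairs. The ratio was above 1 at 13 of the 15 pairs, with a range of 0.912 to 2.13. For Lama1 it was 1.54 (counting interval 1.10 to 2.17) and for the middle Itgbl1 site 2.13 (1.01 to 4.72). At the other 13 pairs the interval included 1, for example at Lamc1 (1.57, 0.847 to 2.95) and at the Col4a3 and Col4a4 start (1.32, 0.618 to 2.83). With 1 library a group these ratios compare 2 libraries and not the conditions.

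**Figure D5:**
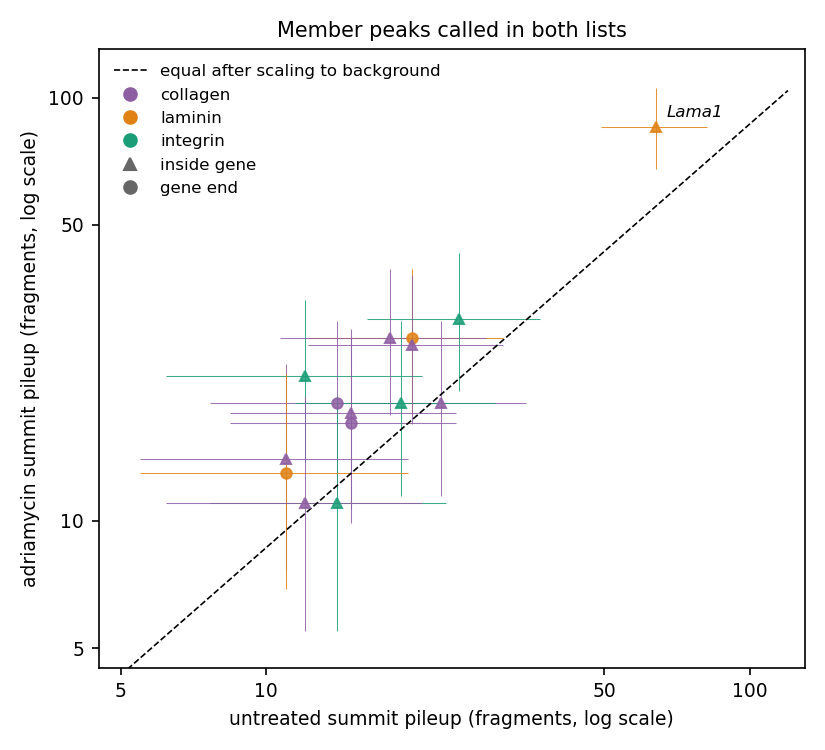
Summit pileup in fragments (log scales) with adriamycin (vertical) and untreated (horizontal) at the 15 positions called in both lists, by family and by place (triangles inside genes, circles at gene ends), with exact 95% Poisson intervals. The dashed line marks equal pileup after scaling to background; 13 of 15 points lie above it, Lama1 stands apart at 85 and 64 fragments, and most intervals cross the line.

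Genes that act with these families were described from 5 lists by their gene-end peaks, beside 16.0% of all genes with adriamycin and 5.78% untreated. These 5 lists were not recomputed at stricter thresholds or with peak lists of equal length. At equal length 5.73% of all genes had a gene-end peak with adriamycin. Enzymes and chaperones of collagen processing had a peak at 12 of 30 genes (40.0%, 22.7 to 59.4%) with adriamycin and at 3 (10.0%, 2.11 to 26.5%) untreated. All 4 prolyl 3-hydroxylase family genes, P3h1 to P3h4, were among the 12, along with the procollagen proteases Adamts2 and Adamts14 and the crosslinking lysyl oxidase genes Loxl1 and Loxl4. Related genes of this list had none in either library, among them Crtap, P4ha1, P4ha2, Adamts3, Lox, Loxl2 and Loxl3. P4ha3, a catalytic subunit of prolyl 4-hydroxylase, had folds of 7.14 with adriamycin and 6.13 untreated, and pileups of 24 and 19. P3h2 (folds of 6.52 and 3.55) and Pcolce2, an enhancer of procollagen cleavage (5.56 and 5.81), also had a peak in both lists.

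Integrin adhesion genes had a peak at 11 of 34 (32.4%, 17.4 to 50.5%) with adriamycin and 2 (5.88%, 0.720 to 19.7%) untreated. Ptk2, which encodes focal adhesion kinase, had folds of 6.21 and 5.13, and Tln2, which encodes talin 2, a link from integrins to actin, 4.86 and 3.75. The integrin activators Fermt1 and Fermt2, the kinase genes Src and Fyn, and Vcl, Zyx, Parva, Crk and Tns1 had adriamycin peaks alone, with folds of 3.47 to 5.97. Basement membrane and matrix partners had one at 6 of 30 genes (20.0%, 7.71 to 38.6%) with adriamycin and 3 (10.0%) untreated, with Fbln2, Fmod and Npnt, a ligand of the alpha 8 integrin, in both lists. Matrix metalloproteases and their inhibitors had 4 of 26 (15.4%, 4.36 to 34.9%) and 2 (7.69%), led by the membrane protease gene Mmp15 with folds of 8.30 and 6.71 and pileups of 40 and 30. Of the 15 other collagen and laminin receptors, Dag1, which encodes dystroglycan, had a peak with adriamycin (fold 4.49) and Sdc1, a syndecan, untreated (fold 4.07).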

How the data were processed

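DPPA2 ChIP-seq peak lists of 1 adriamycin and 1 untreated library were used, as deposited. Tools listed in the submitters' processing notes are MACS3 3.0.0b1, Bowtie2 2.5.1, deepTools 3.5.1, FastQC 0.12.1 and SAMtools, with build mm10. Filters, the calling command and whether an input was used are not given in the sources. Each library has its own list, per the labels. The deposited fold is the authors' caller's ratio of summit to local background, the deposited −log10 values are those of p and q for the summit, and the deposited score is a whole number per peak that was not used. A further deposited value, of another kind (other), is the distance of the summit from the peak start.

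Entries off chromosomes 1 to 19, X and Y were dropped, which removed 142 adriamycin and 126 untreated entries. Pileups were recovered as the whole number of fragments that gives both fold and −log10 p (pseudocount 1, tolerance 0.001), which succeeded for 99.9% of entries in each list. Steps were tested on simulated data. Gene positions, annotated starts and promoter windows came from RefSeq (GRCm38.p6); exons were not used, and strand is given where a window matched. Gene ends without a strand are named by coordinate. Shares have exact Clopper-Pearson and pileups exact Poisson intervals, for counting error only. Members, gene lists, roles and rules were chosen with earlier results of these data known. Named genes are members with a gene-end peak, laminins, the 10 with the highest inside fold per list, those with 3 or more peaks and the collagen IV pairs, plus genes of the 5 partner lists with a gene-end peak. Others were named after their values were seen, and 1 member that the rule names is not reported here. Alternatives were 2 stricter thresholds, lists of equal length, windows of 500 and 2500 bp, 2 other definitions of overlap, and leaving out peaks over 5 or more times the background. Versions were scipy 1.17.1, pandas 2.3.3, numpy 2.4.6 and matplotlib 3.10.9 under Python 3.11.15.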

Additional observations from a re-analysis of the deposited data

How the results depend on the processing

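Of 72 values recomputed under another setting, 49 stayed within 1.5 times the reported count or inside the interval of the reported share, and 23 moved. Gene-end peaks moved most. At a q of at most 1e-05 they were left at 2 laminin and 2 integrin genes with adriamycin. Untreated they were left at 0 collagen and 1 laminin gene. Of all genes, 7.12% with adriamycin and 2.09% untreated had one at that q. At a fold of at least 5 they were left at 3 collagen, 2 laminin and 1 integrin gene with adriamycin. Untreated they were again left at 0 collagen and 1 laminin gene. Of all genes, 6.94% with adriamycin and 2.13% untreated had one at that fold. With the strongest 7043 peaks of each list there were 3 collagen (Col4a3, Col4a4, Col6a2), 1 laminin (Lamc1) and 2 integrin genes (Itgb1, Itgb5) with adriamycin, so 2 against 0 untreated remained for integrins, and the order turned for collagens (3 against 4 untreated) and laminins (1 against 2 untreated). Of all genes, 5.73% with adriamycin and 5.78% untreated then had one. A window of 2500 bp gave 10 collagen genes with adriamycin, and one of 500 bp gave 1 laminin gene untreated. Of all genes, 20.6% had a gene-end peak with adriamycin at 2500 bp and 4.08% untreated at 500 bp. Any peak was left at 14 collagen genes with adriamycin and 4 untreated at a q of at most 1e-05. Of all genes, 15.9% with adriamycin and 6.13% untreated had one there. At a fold of at least 5 any peak was left at 14 collagen genes with adriamycin and 4 untreated. It was then left at 7 integrin genes with adriamycin. Of all genes, 15.5% with adriamycin and 6.25% untreated had one at that fold. At equal length any peak was left at 10 collagen, 3 laminin and 6 integrin genes with adriamycin, against 12, 3 and 4 untreated. Of all genes, 13.4% and 13.2% had one at that length. The share of adriamycin member peaks overlapping an untreated one was 47.8% at equal length, against 21.1%. The share of all adriamycin peaks at that length was not computed. The cause of the moved values was not tested beyond the shorter lists that these settings make. Leaving out peaks of high local background changed no gene count, and the overlapping shares were then 20.0% with adriamycin and 60.9% untreated. No paired analysis was possible because each group had 1 library. Member gene-end peaks rest on 9 to 27 fragments, without replicates or an input profile.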
